A study of Mus musculus with 48 samples.

Results

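*Fos*, *Fosb*, *Jun*, *Junb*, *Jund*, *Egr1*, *Egr2*, *Ier2*, *Atf3* and *Dusp1* were followed in monocytes, pre-red pulp macrophages (pre-RPMs) and red pulp macrophages (RPMs) of the mouse spleen. They were chosen by name, as immediate early and AP-1 genes, and all 10 were found among the 54735 genes of the count tables. RPMs are the resident macrophages that take up aged red blood cells and return their iron to the circulation, and monocytes give rise to them through the pre-RPM stage. RNA-seq was run on 24 libraries, with 4 mice for each cell type in wild-type (WT) Balb/c mice and 4 in Balb/c mice labelled *Il1rl1-/-*, which are to lack the receptor for interleukin-33. The mice were males aged 10 weeks, each library came from the sorted cells of a single mouse, and monocytes were sorted as Ly6Glo CD11bhi F4/80-, pre-RPMs as Ly6Glo CD11bhi F4/80lo and RPMs as Ly6Glo CD11blo/- F4/80hi. The labels tie the deletion to no single cell type, and the design asks how the cell types and the genotypes differ.

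Immediate early genes are transcribed within minutes of a signal from a growth factor, a cytokine, stress or the handling of cells, without new protein being made first, and most of their transcripts are short-lived. MAP kinases carry the signal to factors already bound at the promoters, such as the serum response factor at CArG boxes and CREB at cyclic AMP response elements (CREs). AP-1 is a dimer of a JUN-family protein with a FOS-family or ATF-family protein. EGR1 and EGR2 are zinc finger factors that act in myeloid differentiation, ATF3 restrains inflammatory genes in macrophages, and DUSP1 is a phosphatase that switches off the p38 and JNK kinases.

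RefSeq promoters (GRCm38.p6) were searched for 8 of the 10 genes. Those of *Egr1* and *Ier2* were not searched, so nothing is said here about sites in them. Shown here are the bases before the transcription start of *Fos*, *Junb*, *Atf3* and *Dusp1*, 4 genes that were lower in RPMs than in pre-RPMs, and of *Jun*, which changed less. Each sequence is written 5′ to 3′ on the strand of the gene. Capitals mark a CRE (TGACGTCA) or a CRE half-site (TGACG, which reads CGTCA on the other strand).
Fos: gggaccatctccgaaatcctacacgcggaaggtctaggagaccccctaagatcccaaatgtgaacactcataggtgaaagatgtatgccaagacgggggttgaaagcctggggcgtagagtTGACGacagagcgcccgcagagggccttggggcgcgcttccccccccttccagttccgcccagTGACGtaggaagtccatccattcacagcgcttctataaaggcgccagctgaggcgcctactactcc
Junb: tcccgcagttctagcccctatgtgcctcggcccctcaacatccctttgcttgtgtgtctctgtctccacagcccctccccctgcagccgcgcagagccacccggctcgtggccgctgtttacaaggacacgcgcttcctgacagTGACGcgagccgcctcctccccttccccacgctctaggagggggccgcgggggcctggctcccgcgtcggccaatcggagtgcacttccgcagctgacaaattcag
Atf3: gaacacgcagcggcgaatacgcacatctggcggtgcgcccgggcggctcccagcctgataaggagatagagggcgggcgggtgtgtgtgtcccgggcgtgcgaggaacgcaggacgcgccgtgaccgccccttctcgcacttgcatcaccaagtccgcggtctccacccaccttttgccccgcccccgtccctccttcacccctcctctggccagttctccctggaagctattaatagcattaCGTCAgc
Dusp1: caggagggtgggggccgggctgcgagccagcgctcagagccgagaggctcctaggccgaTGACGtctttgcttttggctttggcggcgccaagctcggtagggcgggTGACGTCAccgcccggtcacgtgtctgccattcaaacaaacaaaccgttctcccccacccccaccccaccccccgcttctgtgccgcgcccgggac
Jun: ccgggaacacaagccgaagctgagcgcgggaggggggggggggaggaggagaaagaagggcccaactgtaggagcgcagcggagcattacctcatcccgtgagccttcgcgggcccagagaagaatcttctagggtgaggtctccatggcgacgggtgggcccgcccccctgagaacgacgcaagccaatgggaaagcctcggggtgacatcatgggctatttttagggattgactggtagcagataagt
The *Fos* sequence spans chr12:85473640-85473889 on the plus strand, just upstream of the gene, and holds 2 half-sites, at 129 to 125 and at 66 to 62 bases before the start. The *Junb* sequence (chr8:84978749-84978998, minus strand, no gene annotated within it) holds 1 half-site at 106 to 102 bases. The *Atf3* sequence (chr1:191183334-191183583, minus strand) lies inside the annotated *Atf3* gene, mostly intronic for longer transcripts with 7 exonic bases, and its half-site lies 7 to 3 bases before the start. The *Dusp1* sequence (chr17:26508520-26508722, minus strand, upstream of the annotated gene) leaves out the 47 bases nearest the RefSeq start, which are annotated as exon. Counted from that start, it holds a full CRE at 143 to 136 bases and a further half-site at 191 to 187 bases. The *Jun* sequence (chr4:95052223-95052472, minus strand) lies in an intron of the antisense gene *Junos* and holds neither. Both strands were searched, and a full CRE also counts as half-sites. Among the searched genes not shown, the *Jund* window held neither a CRE nor a half-site. That window (chr8:70697489-70697738) overlaps no annotated gene and is not adjacent to the counted *Jund* gene, which starts at 70698949. Bases next to the counted *Jund* gene were not searched. The *Fosb* window and some windows of *Egr2* held half-sites. Whether these sites go with lower levels in RPMs was not tested. Of all 32851 promoter windows of 250 bases, 1.55% held a CRE and 17.8% a half-site. None of the 8 genes held an AP-1 site of the letters TGANTCA, found in 6.75% of all windows. Only exact letters were searched. The *Jun* sequence holds TGACATCA, a close variant of the CRE, which was not counted. An EGR site (GCGNGGGCG) was found only in the *Fosb* window among the 8 genes, against 4.7% of all windows, and a CArG box only in windows of *Egr2*, against 1.47%. These matches describe letters in a window, and binding was not measured.

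The libraries held between 3562367 and 6559454 counts, of which the ribosomal RNA-derived gene *Gm42418* took between 24.4% and 38.8% and mitochondrial genes between 5.49% and 10.6%. Levels below are counts scaled to a fixed library size and given as CPM, and 3 counts in a library correspond to between 0.457 and 0.842 CPM. *Vcam1*, an adhesion molecule of RPMs, had at most 42.1 CPM in monocytes and pre-RPMs and at least 1314 CPM in RPMs. *Ccr2*, a chemokine receptor of monocytes, had at most 14.3 CPM in RPMs and at least 149 CPM elsewhere. Not all markers followed the sort. From WT monocytes to WT RPMs 10.5% of all genes fell and 13.4% rose by the criteria given below. Of 8 monocyte markers, 6 fell and 2 rose at this step. *Treml4*, in that list, had a median of 30.4 CPM in WT monocytes and 248.5 CPM in WT RPMs. The summed list had medians of 1173 and 1731 CPM. Monocyte libraries also held NK cell and neutrophil transcripts. The *Il1rl1* counts went against the labels in 2 cell types: they were 12 to 28 in WT monocytes and 51 to 73 in monocytes labelled *Il1rl1-/-*, 13 to 24 against 42 to 76 in pre-RPMs, and 5 to 13 against 1 to 7 in RPMs. Whether the counted exons lie outside the deleted part is not given in the sources used here, so these groups are named by their labels throughout.

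Most of the genes that changed did so between pre-RPMs and RPMs. In WT mice, *Fos*, *Atf3*, *Ier2*, *Dusp1* and *Junb* fell from pre-RPMs to RPMs, between 3.11-fold and 6.88-fold, and in mice labelled *Il1rl1-/-* the same 5 genes and *Jund* fell. Between monocytes and pre-RPMs the one call was a fall of *Egr1* in WT mice. For cell types a call needed an adjusted p below 0.01 and a log2 fold change beyond 1 in either direction, by the quasi-likelihood test of edgeR adjusted over all genes tested.

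From WT monocytes to WT pre-RPMs, 1 of the 9 genes tested fell and none rose, where 3.25% of all genes fell and 0.316% rose. From WT pre-RPMs to WT RPMs, 5 of 8 fell and none rose, against 10.7% and 14% of all genes, and the median log2 fold change of the 8 was -1.65 against -0.00118 over all genes. Set against WT monocytes, WT RPMs were lower in 6 of 9 genes and higher in none, against 10.5% and 13.4% of all genes. In mice labelled *Il1rl1-/-*, none of 8 genes was called from monocytes to pre-RPMs, with 3 of them at an unadjusted p under 0.05 and 1 (*Egr1*) called by DESeq2, where 3.88% of all genes fell and 0.974% rose. From pre-RPMs to RPMs of these mice 6 of 8 fell, against 11.5% of all genes that fell and 14.5% that rose, and between their monocytes and RPMs 6 of 8 fell, against 11.6% and 14.3%. The comparisons share libraries: each monocyte, pre-RPM and RPM group enters 2 of them per genotype. The genes not tested were *Fosb* in every comparison, and *Egr2* where its counts were too low to pass the filter. In sorted bulk samples a lower level cannot be told apart between less RNA per cell and fewer cells that carry it. Whether the handling of cells before and during the sort changed these levels, or did so differently between cell types, was not tested.

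**Figure D1:**
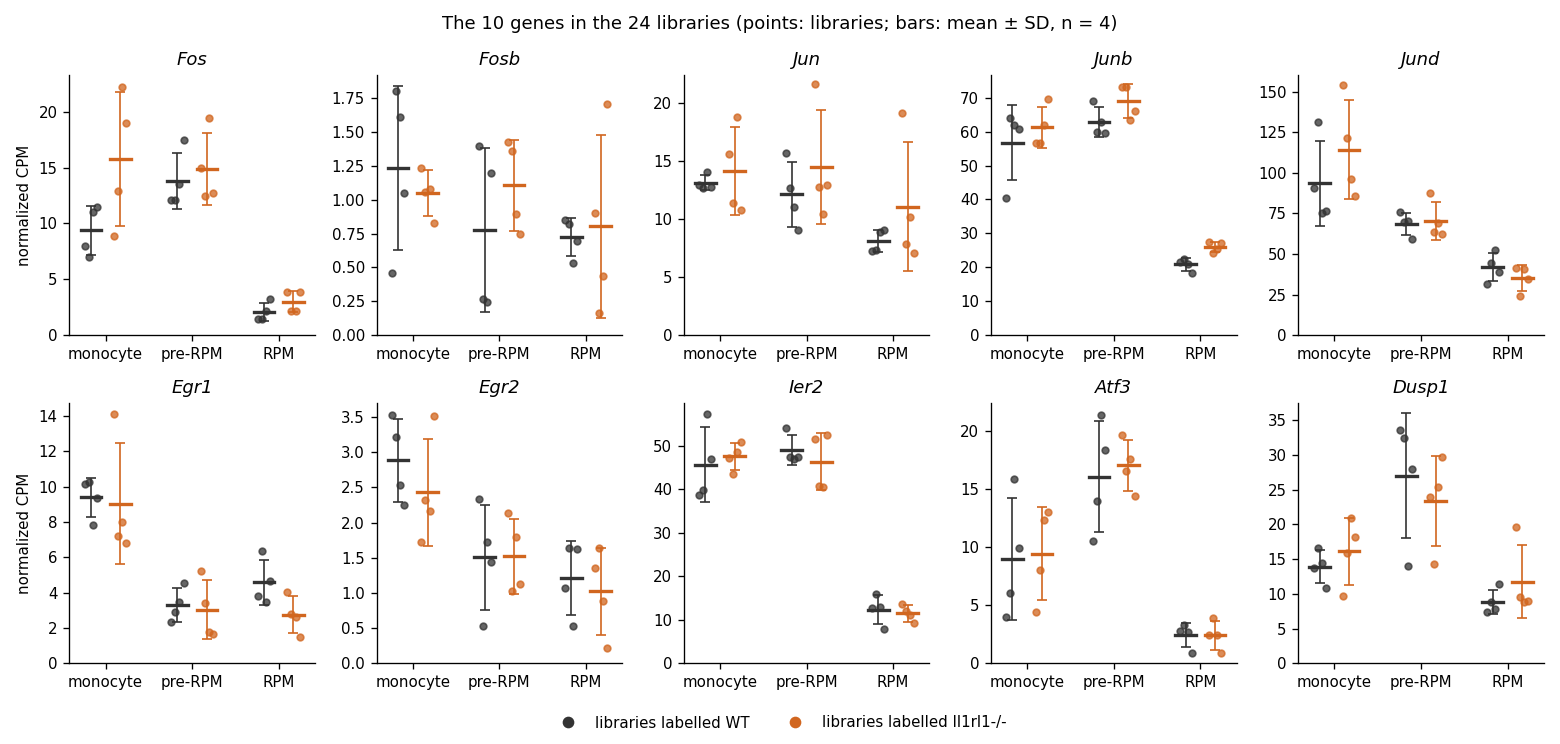
Normalized CPM of the 10 genes, on a linear axis from 0, for monocytes, pre-RPMs and RPMs in libraries labelled WT and *Il1rl1-/-*. Each point is 1 library of 1 mouse, and bars give the mean ± SD of 4. *Fos*, *Junb*, *Ier2* and *Atf3* sit lowest in all 8 RPM libraries, and *Egr1* is highest in monocytes.

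*Fos*, the partner that makes AP-1 strongly active, had 7.99, 7.02, 11.1 and 11.4 CPM in the WT monocytes of mice 1 to 4, the order in which all values per library are given. In the WT pre-RPMs of the same mice it had 12.1, 12.1, 13.5 and 17.4 CPM, and in their RPMs 1.49, 1.43, 2.15 and 3.25 CPM. The 3 cell types did not overlap: every WT pre-RPM library was above every monocyte library, and every RPM library was below both. From pre-RPMs to RPMs *Fos* fell 6.88-fold (log2 fold change -2.78 ± 0.27 SE, adjusted p = 7.55e-07, lower in 4 of 4 mice). From monocytes to pre-RPMs it was 1.47-fold higher, in 4 of 4 mice, which did not pass the test (0.56 ± 0.20, adjusted p = 0.0869). From monocytes to RPMs it fell by 2.20 on the log2 scale (adjusted p = 0.000129).

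In libraries labelled *Il1rl1-/-*, *Fos* had 8.90, 12.9, 22.3 and 19 CPM in monocytes and 14.95, 12.4, 19.4 and 12.7 CPM in pre-RPMs. These 2 groups overlapped, and *Fos* was lower in pre-RPMs in 3 of 4 mice (log2 fold change -0.10, adjusted p = 0.834). In RPMs it had 3.83, 2.13, 2.20 and 3.85 CPM, all below every monocyte and pre-RPM library. The fall from pre-RPMs was 5.12-fold (SE 0.24 on the log2 scale, adjusted p = 7.11e-07). The RPM values stand on few reads, since the WT RPM libraries held only 7 to 14 *Fos* counts each. *Fosb*, the other FOS-family gene of the set, had 1 to 9 counts in every library, between 0.164 and 1.80 CPM, and did not pass the filter on low counts in any comparison.

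The 3 *Jun* genes encode the obligate AP-1 partners. JUN itself is the strongest activator, JUNB can oppose it, and JUND is present in unstimulated cells too. Per kilobase of exon, *Jund* had the highest mean of all 10 genes in each WT cell type, from 56.1 CPM per kb in monocytes to 41.2 in pre-RPMs and 25.2 CPM per kb in RPMs. *Junb* had 24.7, 27.3 and 9.06 CPM per kb, and *Jun* 4.11, 3.80 and 2.55. *Ier2* came second in monocytes and pre-RPMs, with 30.01 and 32.2 CPM per kb, and *Fos* had 3.99, 5.87 and 0.884. Each *Jun* gene overlaps a gene on the other strand (*Junos*, *Prdx2* and *Gm11175*), and the reads were counted by strand.

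*Junb* had 40.4, 64.0, 62.0 and 60.6 CPM in WT monocytes, 69.1, 59.8, 63.0 and 59.7 CPM in pre-RPMs, and 21.7, 22.5, 20.9 and 18.3 CPM in RPMs. Monocytes and pre-RPMs overlapped and differed by 0.15 ± 0.15 on the log2 scale (adjusted p = 0.528). All 4 RPM libraries were below both, and *Junb* fell 3.11-fold from pre-RPMs (-1.64 ± 0.11, adjusted p = 2.00e-08) and by 1.46 on the log2 scale from monocytes (adjusted p = 2.98e-05). In libraries labelled *Il1rl1-/-* it had 56.6, 56.8, 61.8 and 69.6 CPM in monocytes, 73.1, 73.2, 63.3 and 66.1 CPM in pre-RPMs and 27.5, 24.3, 25.3 and 27.2 CPM in RPMs. The fall from pre-RPMs to RPMs was 2.76-fold there (adjusted p = 3.71e-09). Relative to its mean, *Junb* had the narrowest spread of the 10 genes in RPMs of both genotypes, with a mean of 20.9 ± 1.81 CPM in WT and 26.1 ± 1.51 CPM in the other genotype (SD, n = 4 each).

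*Jund* had 90.9, 132, 75.1 and 76.7 CPM in WT monocytes, 75.7, 69.8, 70.1 and 59.2 CPM in pre-RPMs and 31.7, 44.6, 52.6 and 39.0 CPM in RPMs. It was the one *Jun* gene that was lower in pre-RPMs than in monocytes in all 8 mice, by 0.45 ± 0.18 on the log2 scale in WT (adjusted p = 0.112) and 0.70 ± 0.18 in mice labelled *Il1rl1-/-* (adjusted p = 0.0211), and neither was called. All 4 WT RPM libraries were below all pre-RPM libraries, with a log2 fold change of -0.76 ± 0.15 (adjusted p = 0.000555) that did not reach the fold set for a call. In mice labelled *Il1rl1-/-* *Jund* had 87.3, 63.4, 69.0 and 62.3 CPM in pre-RPMs and 41.6, 23.97, 41.0 and 34.4 CPM in RPMs, and fell by 1.06 on the log2 scale (SE 0.16, adjusted p = 4.25e-05). That call was lost without pre-RPM library 1 (-0.95) or RPM library 2 (-0.89), and the genotypes were not shown to differ in this step (difference -0.28 ± 0.23, adjusted p = 0.864). Against WT monocytes WT RPMs fell by 1.18 (adjusted p = 0.000793), a call lost without WT monocyte library 2 (-0.97).

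*Jun* had 12.9, 12.6, 14.1 and 12.8 CPM in WT monocytes, 15.6, 12.7, 11.1 and 9.08 CPM in pre-RPMs and 7.23, 7.36, 8.85 and 9.04 CPM in RPMs. WT RPMs lay below both other groups, with log2 fold changes of -0.63 ± 0.20 against pre-RPMs (adjusted p = 0.0171) and -0.71 ± 0.15 against monocytes (adjusted p = 0.00247), and neither was called. For *Jun* in libraries labelled *Il1rl1-/-*, the range in RPMs was 7.06 to 19.1 CPM and overlapped the 10.4 to 21.6 CPM of pre-RPMs. *Jun* was lower in RPMs than in pre-RPMs of the same mouse in 8 of 8 mice, with a smallest difference of -0.01 on the log2 scale. As a share of the per-length total of the 3 *Jun* genes, *Junb* made up 29.5% in WT monocytes, 37.9% in pre-RPMs and 25.0% in RPMs, and *Jund* 65.5%, 56.9% and 68.0%. In libraries labelled *Il1rl1-/-* *Junb* took 27.5%, 39.3% and 32.2% of the total at these stages, and *Jund* 68.0%, 54.9% and 58.4%. *Junb* thus had a smaller mean share in RPMs than in monocytes in WT and a larger one in the other genotype, and *Jund* the reverse. For both genes and in both genotypes, the shares of monocyte and RPM libraries overlapped. The shares were chosen after the values were seen and were not tested.

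*Atf3*, a stress-induced partner of the JUN proteins, had 3.99, 6.02, 15.9 and 9.93 CPM in WT monocytes, 10.5, 14.0, 21.4 and 18.4 CPM in pre-RPMs and 2.77, 3.27, 2.68 and 0.927 CPM in RPMs. RPM libraries were all below the other groups. Monocytes and pre-RPMs overlapped between mice, yet *Atf3* was higher in the pre-RPMs of each of the 4 mice, and again in each of the 4 mice labelled *Il1rl1-/-*. Neither difference passed the test, with log2 fold changes of 0.87 ± 0.37 (adjusted p = 0.127) and 0.84 ± 0.26 (adjusted p = 0.0434). From pre-RPMs to RPMs *Atf3* fell 6.75-fold in WT (-2.75 ± 0.31, adjusted p = 4.12e-06) and 6.98-fold in mice labelled *Il1rl1-/-* (-2.80 ± 0.27, adjusted p = 2.99e-07). In the latter it had 4.45, 8.02, 12.3 and 13.01 CPM in monocytes, 19.7, 16.5, 17.6 and 14.4 CPM in pre-RPMs and 2.48, 3.94, 2.42 and 0.856 CPM in RPMs. The RPM values rest on few reads, with 4 to 16 *Atf3* counts in each WT library and 4 to 24 in the other genotype. Its fall from WT monocytes to WT RPMs (-1.87 ± 0.47, adjusted p = 0.00739) was lost when monocyte library 3 or 4 or any 1 RPM library was left out, with adjusted p between 0.0125 and 0.0247.

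**Figure D2:**
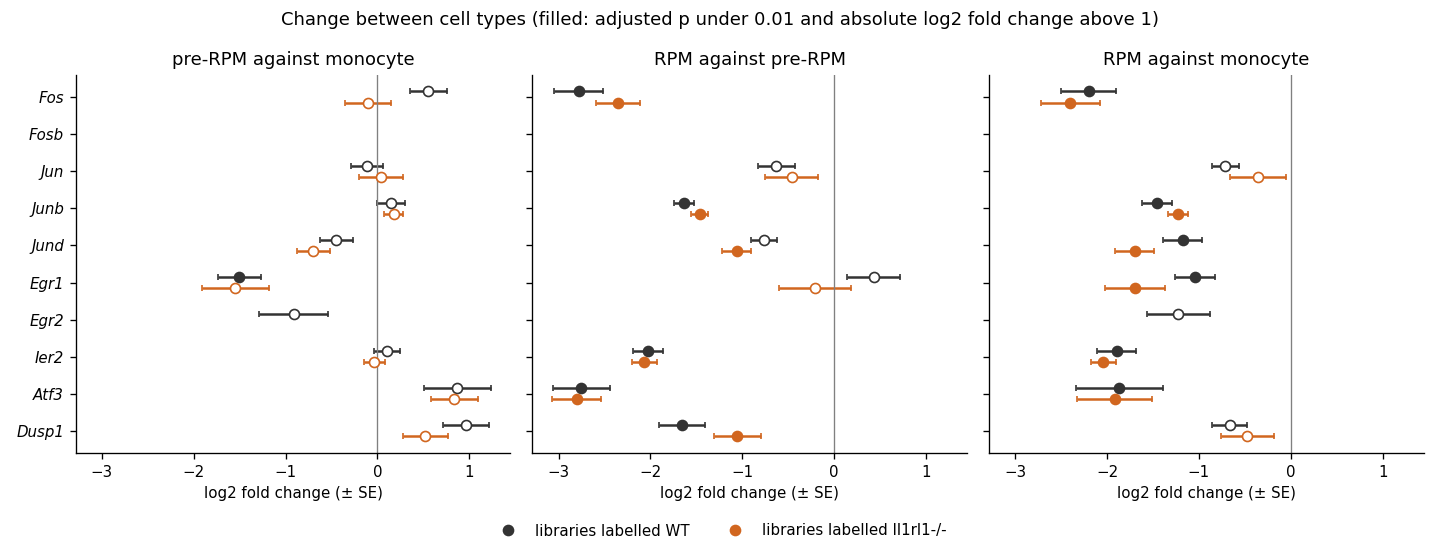
Log2 fold changes (± SE, edgeR) of the genes tested, for each step between cell types and in each genotype. Filled points were called at an adjusted p under 0.01 and a log2 fold change beyond 1. From pre-RPMs to RPMs *Fos* and *Atf3* lie furthest to the left, at -2.78 and -2.75 in WT, while *Egr1* moves at the earlier step from monocytes to pre-RPMs.

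*Egr1* followed another course. It had 10.1, 10.2, 7.83 and 9.33 CPM in WT monocytes, 2.33, 2.90, 3.44 and 4.54 CPM in pre-RPMs and 3.83, 6.34, 3.49 and 4.64 CPM in RPMs. Every monocyte library was above every pre-RPM and RPM library, and the latter overlapped. From monocytes to pre-RPMs *Egr1* fell 2.84-fold (log2 fold change -1.50 ± 0.23, adjusted p = 0.00215, lower in 4 of 4 mice). That call was lost without WT pre-RPM library 1 (adjusted p = 0.0108) or 2 (adjusted p = 0.0111). From pre-RPMs to RPMs it was 1.35-fold higher, in 4 of 4 WT mice, which did not pass the test (0.43 ± 0.29, adjusted p = 0.237). WT RPMs were lower than WT monocytes by 1.04 on the log2 scale (adjusted p = 0.00234), a call lost without WT RPM library 1 (adjusted p = 0.0105) or 3 (-0.93).

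In libraries labelled *Il1rl1-/-* *Egr1* had 14.1, 7.18, 7.998 and 6.82 CPM in monocytes, 5.22, 3.41, 1.79 and 1.68 CPM in pre-RPMs and 4.05, 2.79, 2.64 and 1.497 CPM in RPMs. It was lower in pre-RPMs than in monocytes in 4 of 4 mice and the groups did not overlap. The log2 fold change of -1.55 ± 0.36 had an adjusted p of 0.0131 and was not called. With the mouse as a block, which pairs cells of the same animal, it was -1.56 with an adjusted p of 0.0011 and was called. RPMs of these mice were lower than their monocytes by 1.70 on the log2 scale (SE 0.33, adjusted p = 0.000966). Pre-RPMs and RPMs overlapped, with RPMs lower in 3 of 4 mice (log2 fold change -0.21 ± 0.39, adjusted p = 0.681). The change from monocytes to pre-RPMs was not shown to differ between the genotypes (difference -0.05 ± 0.45, adjusted p = 1.0).

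*Egr2*, the paralogue of *Egr1*, had only 1 to 23 counts in a library. It had 3.53, 3.21, 2.53 and 2.26 CPM in WT monocytes, 2.33, 0.527, 1.72 and 1.43 CPM in pre-RPMs and 1.06, 1.64, 0.536 and 1.62 CPM in RPMs. WT RPMs lay below all WT monocytes (log2 fold change -1.22 ± 0.35, adjusted p = 0.0133) and this was not called. In WT pre-RPMs, WT RPMs and RPMs labelled *Il1rl1-/-* 1 library each held 3 counts or fewer, and the step from pre-RPMs to RPMs was not tested for *Egr2* at this depth.

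NK cell and neutrophil transcripts moved with the fall of *Egr1* from monocytes to pre-RPMs. The summed level of 8 NK cell markers was between 572 and 1912 CPM in WT monocytes, between 72.4 and 145 CPM in WT pre-RPMs and between 11.8 and 44.2 CPM in WT RPMs, with *Klra8* at 0 in pre-RPMs and RPMs. The same sum in the other genotype was 509 to 1581 CPM in monocytes, 14.6 to 52.5 CPM in pre-RPMs and 7.71 to 19.4 CPM in RPMs. The sum of 9 neutrophil markers ranged from 743 to 2469 CPM in WT monocytes, from 87.9 to 202 CPM in pre-RPMs and from 11.1 to 14.5 CPM in RPMs, where *Elane* was at 0. The other genotype had 1018 to 2053 CPM in monocytes, 134 to 348 CPM in pre-RPMs and 1.76 to 6.53 CPM in RPMs, with *Ly6g* at 0 in RPMs. The sum of 5 plasma cell markers was also higher in WT monocytes, at 529 to 702.7 CPM against 237 to 293 CPM in WT pre-RPMs. In the other genotype monocytes and pre-RPMs overlapped in this sum, at 437 to 1890 CPM and 152.5 to 472 CPM. From WT monocytes to WT pre-RPMs 3.25% of all genes fell. Among these markers, 7 of 7 NK cell genes tested and 5 of 8 neutrophil genes tested fell at this step. The part of these cells in the level of *Egr1* was not tested.

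The log2 ratio of *Egr1* to *Fos* counts, set up after the values were seen, put the 2 courses side by side. It averaged 0.02 in WT monocytes, with libraries between -0.49 and 0.54, and -2.05 in WT pre-RPMs, between -2.32 and -1.91. In WT RPMs it averaged 1.14, between 0.50 and 2.07, so that the 3 cell types nearly separated, with 1 monocyte library above the lowest RPM library. The means were -0.78, -2.38 and -0.15 in the same order in libraries labelled *Il1rl1-/-*, and monocytes spread widely, from -1.47 to 0.66. The ratio in RPMs rests on 7 to 14 *Fos* counts per WT library, and no test was made.

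**Figure D3:**
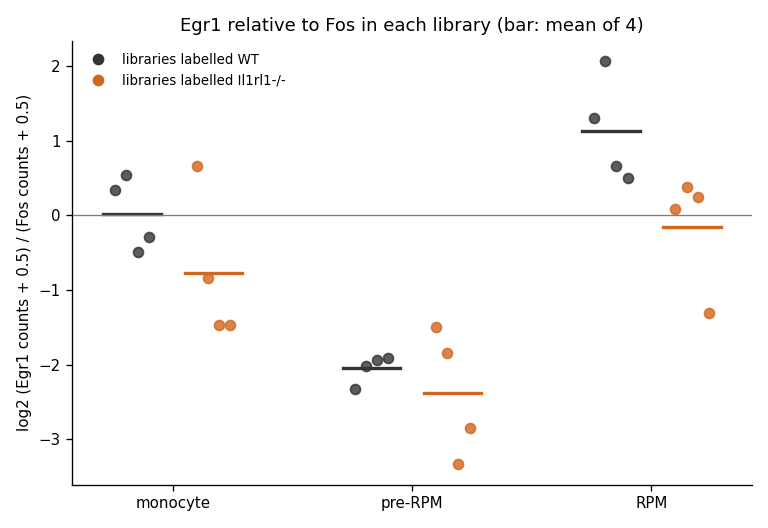
Log2 ratio of *Egr1* to *Fos* counts (0.5 added to each) in every library, by cell type, for WT and libraries labelled *Il1rl1-/-*. Points are libraries and bars the mean of 4. All 8 pre-RPM libraries lie lowest, at or below -1.50, and the 4 WT RPM libraries lie highest on average, at 1.14.

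*Ier2*, a nuclear protein of the immediate early response with a short single-exon gene, had 38.7, 39.7, 57.4 and 46.9 CPM in WT monocytes, 54.2, 47.4, 47.0 and 47.3 CPM in pre-RPMs and 12.8, 15.9, 12.9 and 7.88 CPM in RPMs. Monocytes and pre-RPMs overlapped (log2 fold change 0.10 ± 0.14, adjusted p = 0.655) and RPMs lay below both. *Ier2* fell 4.07-fold from pre-RPMs to RPMs in WT (-2.02 ± 0.16, adjusted p = 1.51e-07) and 4.19-fold in mice labelled *Il1rl1-/-* (-2.07 ± 0.14, adjusted p = 4.74e-09). In the latter it had 47.2, 43.5, 48.6 and 50.8 CPM in monocytes, 51.5, 40.7, 40.6 and 52.4 CPM in pre-RPMs and 13.7, 11.98, 11.0 and 9.20 CPM in RPMs.

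*Dusp1* had 13.7, 16.6, 14.5 and 10.8 CPM in WT monocytes, 33.6, 32.4, 14.0 and 27.9 CPM in pre-RPMs and 7.45, 8.79, 7.78 and 11.4 CPM in RPMs. Of the WT pre-RPM libraries, 3 lay above all monocytes and 1 within their range. The mean level was 1.95-fold higher in pre-RPMs than in monocytes (0.96 ± 0.25, adjusted p = 0.0270) and was not called, and without WT pre-RPM library 3 it was 1.18 with an adjusted p of 0.00414. *Dusp1* then fell 3.15-fold from WT pre-RPMs to WT RPMs (-1.65 ± 0.25, adjusted p = 7.22e-05). In mice labelled *Il1rl1-/-* it had 9.64, 15.8, 21.0 and 18.2 CPM in monocytes, 23.97, 14.3, 25.4 and 29.8 CPM in pre-RPMs and 19.6, 9.52, 8.81 and 8.98 CPM in RPMs. Its fall from pre-RPMs to RPMs there was 2.08-fold (-1.05 ± 0.26, adjusted p = 0.00287), and was lost without pre-RPM library 4 (adjusted p = 0.0152) or RPM library 2 (-0.94), 3 (adjusted p = 0.0109) or 4 (-0.95). RPM library 1 of that group stood at 19.6 CPM, above the lowest pre-RPM library.

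Transcripts of other cell types moved with the RPM comparisons. The RPM libraries held erythroid transcripts, summed over 6 markers, between 1106 and 21670 CPM in WT and between 769 and 13840 CPM in libraries labelled *Il1rl1-/-*, against at most 544 CPM in any other library. From pre-RPMs to RPMs 10.7% of all genes fell in WT and 11.5% in libraries labelled *Il1rl1-/-*. At this step 6 of 6 neutrophil markers tested fell in each genotype. Their median log2 fold change was -3.57 in WT and -6.38 in the other genotype. Of the NK cell markers 4 of 5 tested fell in WT and 1 of 4 in the other genotype, and the summed levels of both lists are given with *Egr1* above. The part of these transcripts in the lower levels in RPMs was not tested. *Spic*, the transcription factor of RPMs, had between 274 and 348 CPM in WT RPMs and at most 16.3 CPM in WT monocytes and pre-RPMs.

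Between genotypes the 10 genes were not shown to differ. None was called at an adjusted p under 0.05 in monocytes, pre-RPMs or RPMs, where 0.0614%, 0.552% and 0.233% of all genes were called, and DESeq2 also called none. At an unadjusted p under 0.05 there was 1 gene in monocytes, none in pre-RPMs and 2 in RPMs. In monocytes *Fos* averaged 15.8 ± 6.01 CPM in libraries labelled *Il1rl1-/-* against 9.37 ± 2.20 CPM in WT (SD, n = 4 each), and the groups overlapped (log2 fold change 0.75 ± 0.29, adjusted p = 0.997). In RPMs *Junb* lay above WT in all 4 libraries, at 24.3 CPM or more against 22.5 CPM or less (0.31 ± 0.11, adjusted p = 0.55). *Egr1* in RPMs averaged 2.75 ± 1.05 CPM against 4.57 ± 1.27 CPM, with overlapping groups (-0.76 ± 0.32, adjusted p = 0.659). In pre-RPMs the log2 fold changes of the 8 genes tested lay between -0.22 (*Dusp1*) and 0.25 (*Jun*). *Fosb* and *Egr2* were not tested there, and *Fosb* averaged 1.11 CPM in libraries labelled *Il1rl1-/-* and 0.776 CPM in WT.

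**Figure D4:**
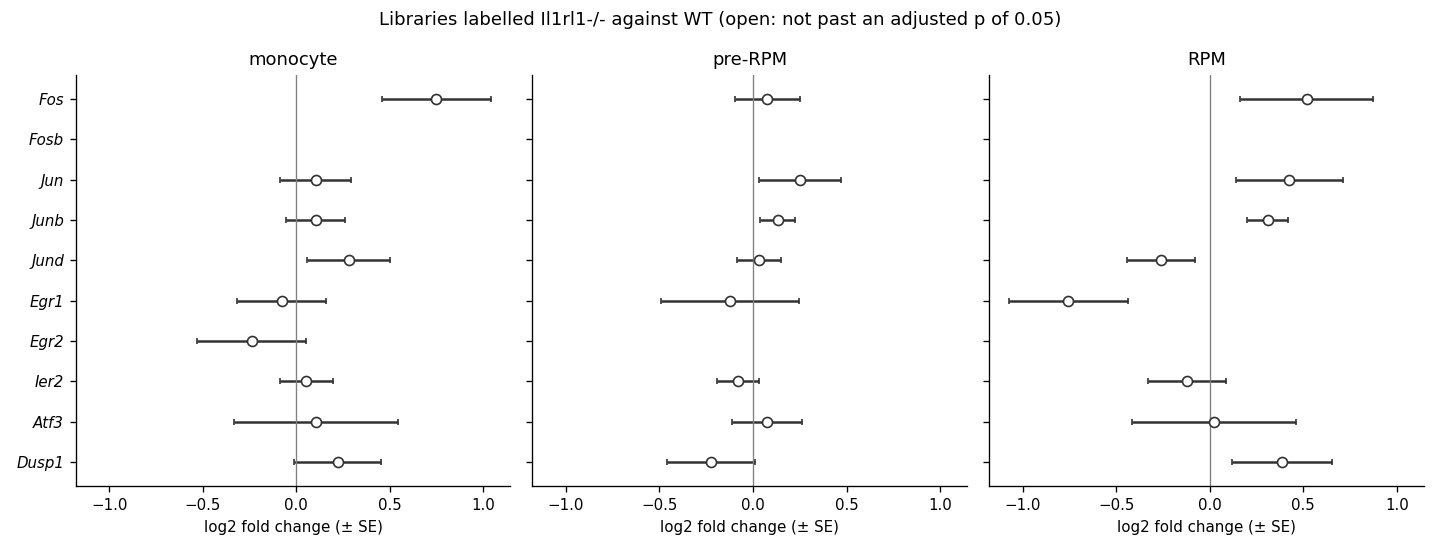
Log2 fold changes (± SE, edgeR) of libraries labelled *Il1rl1-/-* against WT in each cell type, for the genes that passed the filter. Open points were not called at an adjusted p of 0.05, and no point was. *Fos* in monocytes (0.75) and *Egr1* in RPMs (-0.76) lie furthest from 0.

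The genotypes were also compared in how far each gene changed between cell types. No gene of the 10 was called for the step from monocytes to pre-RPMs, where 0% of all genes were, from pre-RPMs to RPMs (0.107% of all genes) or from monocytes to RPMs (0.0318%), none had an unadjusted p under 0.05, and DESeq2 called none. The largest difference at the first step was in *Fos*, which was 1.47-fold higher in WT pre-RPMs than in WT monocytes but not in mice labelled *Il1rl1-/-* (difference -0.67 ± 0.35, unadjusted p = 0.073, adjusted p = 1.0). At the step to RPMs it was in *Egr1* (-0.62 ± 0.51, adjusted p = 0.86) and in *Dusp1* (0.62 ± 0.41, adjusted p = 0.797).

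Across the 24 libraries the 9 genes that passed the filter mostly moved together: of their 36 pairs, 35 had a positive Pearson r of log2 CPM, with a median of 0.594. The pair most alike was *Junb* and *Ier2* (0.956) and the least alike *Egr1* and *Dusp1* (-0.188). With the mean of each group taken away the median fell to 0.115, with 25 of 36 pairs positive, from -0.428 for *Jund* and *Atf3* to 0.654 for *Ier2* and *Atf3*. These points share mice, library preparation and depth, and are a description. The genes outside the set whose levels were most like the mean of the 9, among 11665 genes over 24 libraries, were *Plec* (r = 0.975), *Capn2*, *Mmp8*, *H2afy*, *Diaph1*, *Stat3*, *Fmnl1*, *Snrk*, *Itgam* and *Arhgap26* (r = 0.970). Within groups they were *Phf23* (0.836), *Eif4ebp2*, *Sestd1*, *Calhm2*, *Stat3*, *Foxk1*, *Irf2bp2*, *Arhgef7*, *Map7d1* and *Snrk* (0.700). *Stat3* and *Snrk* stood in both lists, and *Itgam* encodes the CD11b used in the sort. The nearest single gene over 24 libraries was *Ep300* for *Fos* (0.963), *Cdc37* for *Jun* (0.743), *Dbnl* for *Junb* (0.980) and *Smad3* for *Jund* (0.956). It was *Bsn* for *Egr1* (0.912), *Spty2d1* for *Egr2* (0.789), *Tsc22d3* for *Atf3* (0.958) and *Axin2* for *Dusp1* (0.855).

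Other genes of the response were counted from lists that hold none of the 10. Of 29 other immediate early genes tested, 2 fell from WT monocytes to WT pre-RPMs and none rose, against 3.25% and 0.316% of all genes. These were *Nr4a3*, a nuclear receptor, at -2.72 ± 0.47 and *Egr3* at -2.03 ± 0.36 on the log2 scale. The same 2 genes (-2.95 and -2.33) and *Myc* (-1.95) fell in mice labelled *Il1rl1-/-*, where 3.88% of all genes fell. From WT pre-RPMs to WT RPMs 15 of the 29 fell and 5 rose, against 10.7% and 14% of all genes, with a median log2 fold change of -1.15. The largest changes were a rise of *Rgs1*, from 0.927 to 37.9 CPM, a fall of *Klf4* (-3.84), a rise of *Plk3* (3.68) and a fall of *Klf2* (-2.98). At this step 17 of 29 fell and 5 rose in mice labelled *Il1rl1-/-*, against 11.5% and 14.5% of all genes. From WT monocytes to WT RPMs 15 of 31 fell and 4 rose, against 10.5% and 13.4% of all genes. *Klf2* and *Klf4*, zinc finger factors of quiescent myeloid and endothelial cells, had 149 ± 14.1 and 67.7 ± 15.1 CPM in WT pre-RPMs and 19.3 ± 8.59 and 4.82 ± 1.52 CPM in WT RPMs.

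Among 11 other AP-1 family genes tested from WT pre-RPMs to WT RPMs, 3 rose and 2 fell, with a median log2 fold change of 0.01. At this step 14% of all genes rose and 10.7% fell. *Maf*, a transcription factor of resident macrophages, rose from 30.5 ± 9.40 to 392 ± 14.3 CPM (log2 fold change 3.64 ± 0.19). *Jdp2*, which can repress AP-1, rose by 1.68, and *Fosl2*, a FOS-family gene, fell by 2.49 on the log2 scale, from 78.1 ± 5.56 to 14.4 ± 1.75 CPM. The other genotype had 4 of 11 that rose and 1 that fell, against 14.5% and 11.5% of all genes.

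Of the phosphatases and other brakes on MAP kinases, 9 were tested from WT monocytes to WT pre-RPMs, and 2 fell, against 3.25% of all genes. These were *Spry2* (-3.07 ± 0.35) and *Spred2* (-1.65 ± 0.30). The other genotype had 2 of 9 that fell, against 3.88% of all genes, *Spry2* from 19.9 to 0.549 CPM and *Dusp10* by 1.40 on the log2 scale. From WT pre-RPMs to WT RPMs 2 of 10 rose and 3 fell, against 14% and 10.7% of all genes. Among them were *Dusp5* (-2.01) and *Dusp6* (-1.52), phosphatases of ERK, and *Spred2*, which rose by 1.94. *Spry4* rose to 11.7 ± 1.25 CPM in WT RPMs from 0.374 CPM in WT pre-RPMs, which is under the level of 3 counts. Of 9 tested in mice labelled *Il1rl1-/-*, 2 rose and 4 fell, against 14.5% and 11.5% of all genes. Of 21 MAP kinases and upstream factors tested 2 rose and 3 fell in WT, near the 14% and 10.7% of all genes that rose and fell at this step, with a median of -0.14. *Mapk8* (JNK1) was among them at 1.20, and *Elk3* (-1.70), *Map2k1* (MEK1, -1.59) and *Mapk3* (ERK1, -1.45) were lower in RPMs. In mice labelled *Il1rl1-/-* 4 of 21 rose and 4 fell, where 14.5% of all genes rose and 11.5% fell. Heat shock genes, which follow protein stress, had 1 of 10 called in WT, *Hspd1* at 1.11, with a median of 0.03, and 1 of 10 in mice labelled *Il1rl1-/-*, *Bag3* at -1.17.

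**Figure D5:**
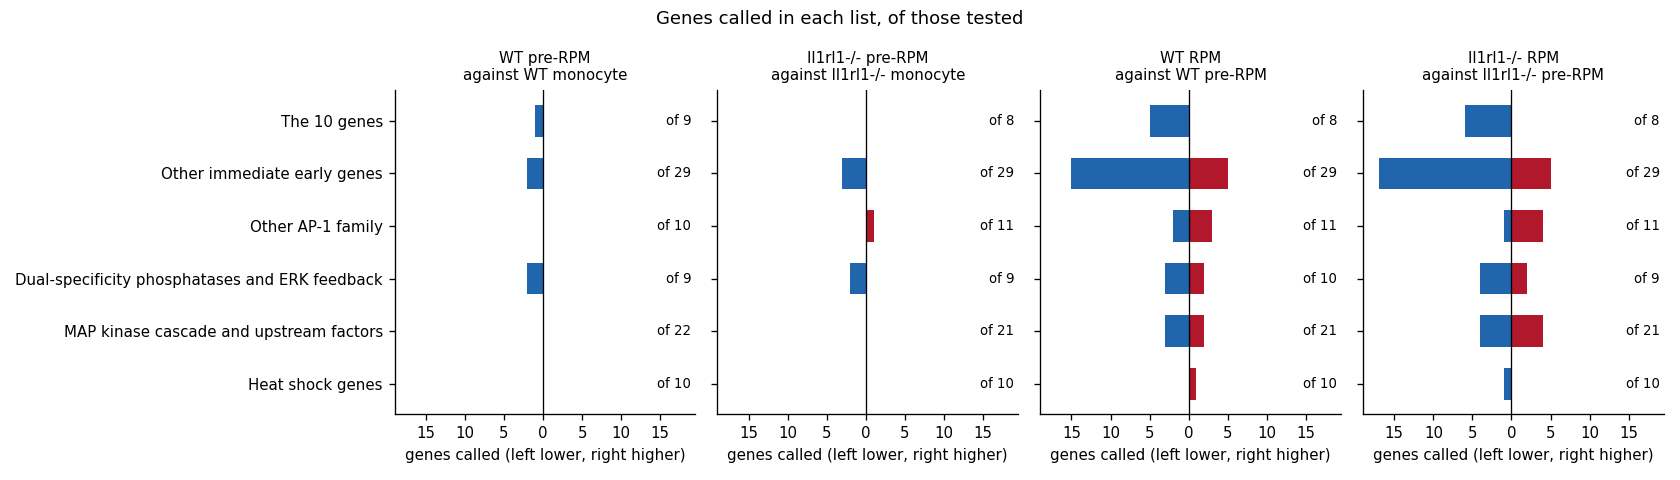
Number of genes called lower (bars to the left) and higher (bars to the right) in the 10 genes and in 5 other lists, for the 2 steps between cell types in each genotype, with the number tested at the right. From WT pre-RPMs to WT RPMs 5 of 8 of the 10 genes and 15 of 29 other immediate early genes were lower, and at most 3 genes of any list were called from monocytes to pre-RPMs.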

How the data were processed

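RNA-seq counts per gene were deposited by the authors as one table per library, and 24 chromatin accessibility samples of the series were not analysed here. Cells were lysed in RLT plus buffer, and libraries were made with the Takara stranded total RNA pico kit. Per the file headers, read pairs were counted on exons by gene name with featureCounts 1.6.2, reverse-stranded, against Ensembl GRCm38 annotation, after STAR 2.5.1 alignment by the study's methods. The build in the submitters' processing notes differs from the mouse build of the headers, and the latter was used.

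Counts were fitted here in R 4.3.3 with edgeR 4.0.16 (filterByExpr, TMM normalization, quasi-likelihood F test, Benjamini-Hochberg adjustment over all genes tested), pairwise for groups and with an interaction for the difference between genotypes. Calls needed an adjusted p under 0.01 with an absolute log2 fold change above 1 between cell types, and an adjusted p under 0.05 between genotypes and for interactions. SE was derived from the F statistic. CPM were scaled with TMM factors over 24 libraries, with a prior count of 2 on the log2 scale, from 12842 genes kept. CPM per kb used the summed exon length. Promoters came from RefSeq and annotation from the reference of GRCm38. The scripts were tested on simulated data. For WT RPMs against WT pre-RPMs, 71 of 200 simulated 2-fold changes and 196 of 200 simulated 4-fold changes were called. A 2-fold change lies at the very limit set for a call between cell types, so the 71 partly reflects that limit. For pre-RPMs between genotypes, where a call needed no such fold, 160 and 199 of 200 were called.

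The 10 genes, the marker lists and the lists of other genes were chosen with earlier results of these data known. All 10 genes are given. From each other list the genes called in a comparison are counted, and up to 4 with the largest log2 fold change are named, of which some are not reported here. Alternatives were DESeq2 1.42.0, other size factors, filters and libraries in the fit, and each library left out. Replicates are separate mice, and no 2 libraries of a group were identical.

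Within a genotype, libraries with the same mouse number come from the same animal by the labels. Correlations of their deviations from the group means ran from -0.04 to 0.31 over the 6 comparisons of cell types. Between genotypes a number marks different animals. Pairs with the same number nevertheless correlated at 0.12 to 0.45 in monocytes, 0.15 to 0.18 in RPMs and 0.05 to 0.16 in pre-RPMs. Pairs with different numbers correlated at up to 0.45 in monocytes and 0.23 in RPMs, but at most 0.03 in pre-RPMs. The same number gave the highest correlation for 2 of 4 *Il1rl1-/-* libraries in monocytes, 1 of 4 in RPMs and 4 of 4 in pre-RPMs. The depth of 3562367 to 6559454 counts per library limits low genes, and floors cover counting error only.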

Additional observations from a re-analysis of the deposited data

Results flagged for a closer look

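In 3 of 52 groups of 4 libraries tested, 1 library stood far from the other 3, and chance alone flags about 1 group in 20. *Junb* in WT monocyte library 1 was the lowest of its group, at 40.4 CPM, where the others had 60.6 to 64.0 CPM. *Ier2* in WT pre-RPM library 1 was the highest of its group, at 54.2 CPM against 47.0 to 47.4 CPM. *Dusp1* in RPM library 1 of the mice labelled *Il1rl1-/-* was the highest of its group, at 19.6 CPM against 8.81 to 9.52 CPM, and the same library had the highest *Jun* level of its group (19.1 CPM).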

How the results depend on the processing

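Of 84 counts of genes called under another setting that kept all libraries, 79 stayed within 1.5 times the reported count. The 84 include the comparisons between genotypes and the interactions, where 0 of the 10 genes were called under every setting. No call changed direction, and changes of sign in genes not called were not counted. With at least 10 counts required in every library, 3 of the 10 genes were called from WT pre-RPMs to WT RPMs in place of 5, since *Fos* and *Atf3* were then not tested. From monocytes to pre-RPMs labelled *Il1rl1-/-*, 1 gene, *Egr1*, was called in place of 0 with DESeq2, with every gene that had a count, with 1 fit over all 24 libraries and with the mouse number as a replicate block. The block changed no other call among the 10 genes, and 1 fit over all 24 libraries ended the call of *Dusp1* from pre-RPMs to RPMs labelled *Il1rl1-/-* (-0.996). When each library was left out in turn, the genes called ranged from 0 to 2 from WT monocytes to WT pre-RPMs, from 5 to 5 for WT RPMs against pre-RPMs and from 4 to 6 against monocytes. In mice labelled *Il1rl1-/-* they ranged from 0 to 0, from 4 to 6 and from 6 to 6, and for the genotypes and interactions from 0 to 0. Depth limits the genes with few reads: the lowest count in any library was 1 for *Fosb* and *Egr2*, 4 for *Atf3*, 6 for *Egr1* and 7 for *Fos*, against at least 29 for each of the other 5.

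Over all genes, the replicate block raised the calls between genotypes from 7 to 27 in monocytes, from 59 to 145 in pre-RPMs and from 26 to 81 in RPMs. Between genotypes this block joins different animals that share only a number. DESeq2 called 694 in place of 396 genes from WT monocytes to WT pre-RPMs.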
